A study of Mus musculus with 31 samples.

Results

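The EGF-family ligands and the ErbB receptors they bind were followed in mouse induced pluripotent stem cells (iPSCs) and in the embryoid bodies grown from them. The set was given by name and holds 10 genes: the ligands Ereg, Areg, Hbegf, Tgfa, Btc and Nrg1 and the receptors Egfr, Erbb2, Erbb3 and Erbb4. A gene was taken as measured where a probe set of the array carried its symbol and no other, and of several such probe sets the one with the highest mean over all 31 arrays was used. By this rule 9 of the 10 genes were measured, out of 18194 genes in all, with 20 probe sets between them. Areg was not analysed here.

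The 4 groups were Nos3-/- embryoid bodies at day 11 (n = 6 arrays), control embryoid bodies at day 11 (n = 9), Nos3-/- iPSCs at day 0 (n = 6) and control iPSCs at day 0 (n = 10). The Nos3-/- cells came from B6.129P2-Nos3tm1unc/J mice and the control cells from wild type CD1 mice, so genotype and strain cannot be told apart in any comparison below. All donors were adult males, and all cells had been tail-tip fibroblasts before they were reprogrammed with Sendai virus. At day 0 they grew on inactive mouse embryonic fibroblasts (feeder cells), whose RNA is part of the sample, and by day 11 they had differentiated without added lineage factors in aggregates. The labels do not say whether arrays of a group come from separate clones, animals or cultures, and p-values therefore reflect array-to-array variation that could be technical. The values are log2 intensities, on which a difference of 1 is a 2-fold change, and they are compared between arrays for 1 gene at a time, never between genes.

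EGF-family ligands are made as membrane-spanning precursors, and cell-surface proteases of the ADAM family cut most of them free. The ErbB receptors are tyrosine kinases that pair when a ligand binds, and they signal through the RAS-MAP kinase and PI3 kinase routes. Egfr binds Ereg, Areg, Hbegf, Tgfa and Btc, while Nrg1 binds Erbb3 and Erbb4. Erbb2 has no known ligand of its own and serves as a partner for the others, and Erbb3 has little kinase activity of its own. In the embryonic mouse heart, Nrg1 from the endocardium acts on Erbb2 and Erbb4 in cardiomyocytes, and Hbegf and Egfr shape the valves.

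Nos3, the targeted gene, did not check the genotype labels. Its probe set had a lowest, median and highest log2 level of 6.70, 6.91 and 7.06 in Nos3-/- embryoid bodies, against 6.76, 7.05 and 7.43 in control. At day 0 these were 6.73, 7.06 and 7.13 in Nos3-/- iPSCs, against 6.36, 6.62 and 7.05 in control. It passed as higher in Nos3-/- cells at day 0 (log2 difference 0.33, SE 0.11, limma adjusted p = 0.0295). At day 11 the difference was -0.17 (SE 0.11, adjusted p = 0.386). Where the probe set lies relative to the deleted stretch is not stated in the labels or files.

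In each group 1 array correlated least with the others of its group: Nos3-/- day 11 replicate 3 (mean r 0.969), control day 11 replicate 1 (0.982), Nos3-/- day 0 replicate 3 (0.978) and control day 0 replicate 1 (0.987). Results that change without these 4 arrays are given both ways. Over 12 pluripotent cell markers the mean level per array ran from 9.33 to 11.66 in Nos3-/- and from 9.55 to 10.56 in control embryoid bodies, against 9.59 to 11.92 in Nos3-/- and 10.23 to 11.54 in control iPSCs. The days overlapped in both genotypes, and 2 of the 12 markers were lower at day 11 than at day 0 in Nos3-/- cells and 4 in control cells. Of 14 cardiomyocyte markers, 10 were higher at day 11 than at day 0 in Nos3-/- cells and 13 in control cells. Nos3-/- day 11 replicate 3 had the lowest mean of its group for the cardiomyocyte list (5.70, group median 8.31), the visceral endoderm list (6.28, median 7.87) and the pluripotent list (9.33, median 10.80). Its cardiomyocyte mean lay within the range of the Nos3-/- iPSCs, 5.55 to 6.22. Among the iPSC arrays, Nos3-/- day 0 replicate 3 had the lowest pluripotent mean (9.59, group median 11.68).

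**Figure D1:**
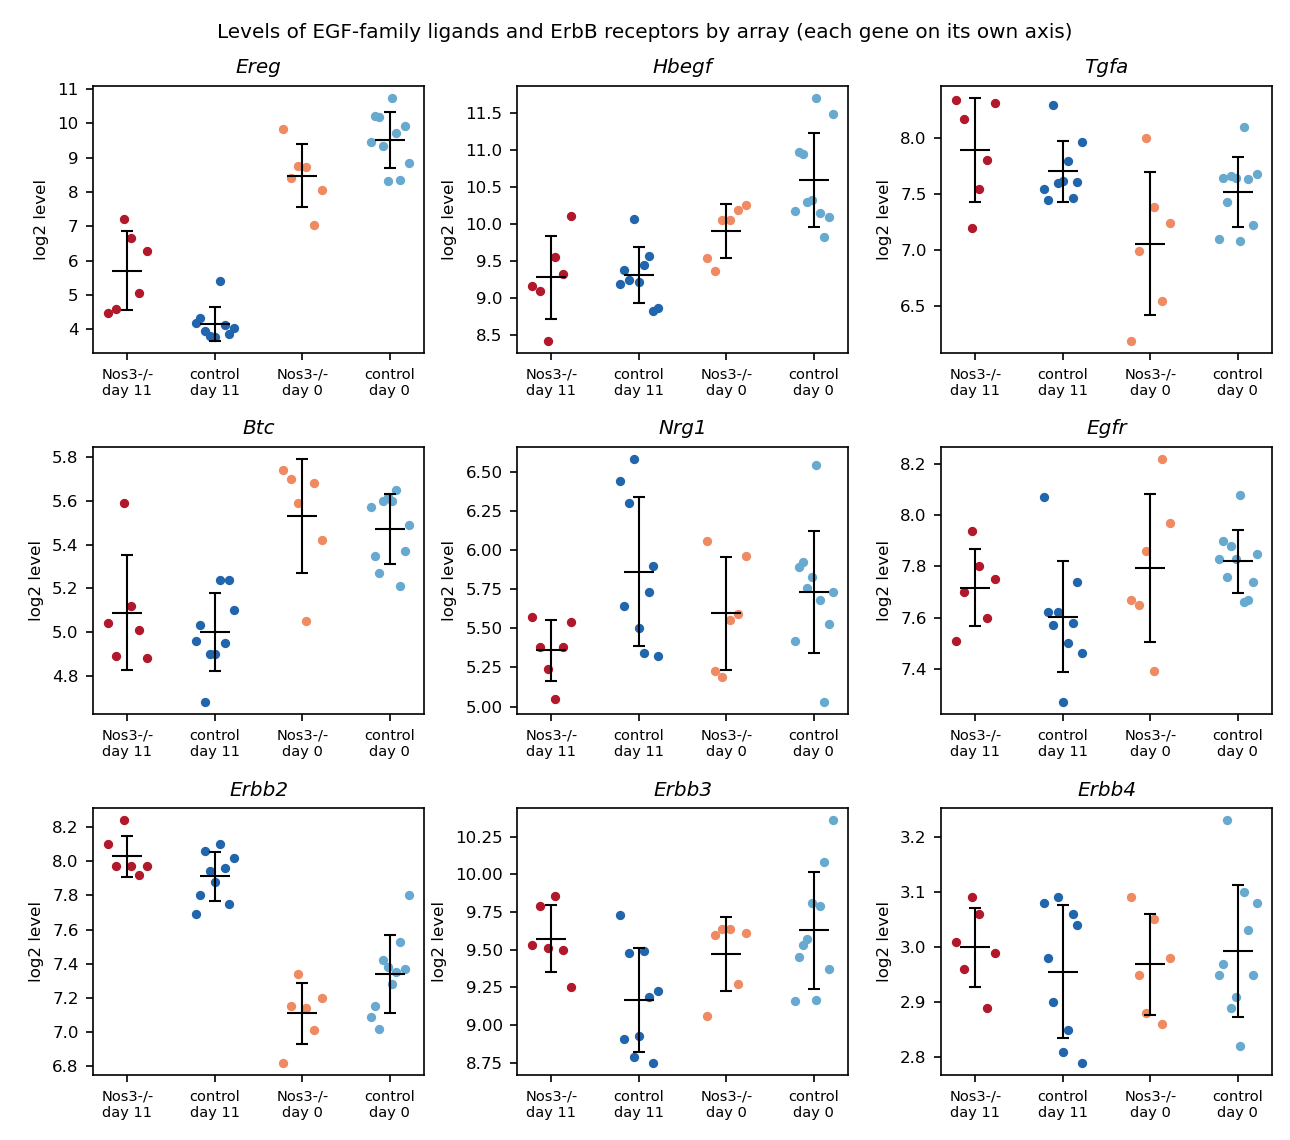
Log2 level of the 9 measured ligands and receptors on each of the 31 arrays, by group (Nos3-/- day 11, control day 11, Nos3-/- day 0, control day 0), each gene on an axis of its own. Points are arrays, and bars are the mean and SD of the group. Ereg spans the widest range, with 4.48 to 7.20 in Nos3-/- and 3.76 to 5.40 in control embryoid bodies, and 7.04 to 9.85 in Nos3-/- and 8.32 to 10.74 in control iPSCs.

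As among all genes, more of these genes passed over time than between the genotypes. Calls rest on a limma fit to all arrays, with p adjusted by Benjamini-Hochberg over all 18194 genes and a threshold of 0.05. Between day 11 and day 0, 4 of the 9 genes passed in Nos3-/- cells (Tgfa and Erbb2 higher, Ereg and Btc lower), where 31.1% of all genes did (13.0% higher and 18.1% lower). In control cells 5 of 9 passed (Erbb2 higher, Ereg, Hbegf, Btc and Erbb3 lower), where 34.2% of all genes did (16% higher and 18.2% lower). Between genotypes 1 of 9 passed at day 11, Ereg, which was higher in Nos3-/-, where 9.70% of all genes passed (4.41% higher and 5.29% lower). At day 0 limma called 0 of 9, where 16.6% of all genes passed (9.17% higher and 7.47% lower). Unadjusted, 4 of the 9 had a p under 0.05, and the share of all genes at that mark was not counted. The difference between the genotypes in the change over time passed for 1 of 9, again Ereg, against 1.24% of all genes (0.522% higher and 0.715% lower). These comparisons share arrays with each other, so their values are not independent. The shares over time, 44.4% in Nos3-/- and 55.6% in control cells, each rest on 9 genes picked by name. Whether they depart from the shares of all genes was not tested.

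**Figure D2:**
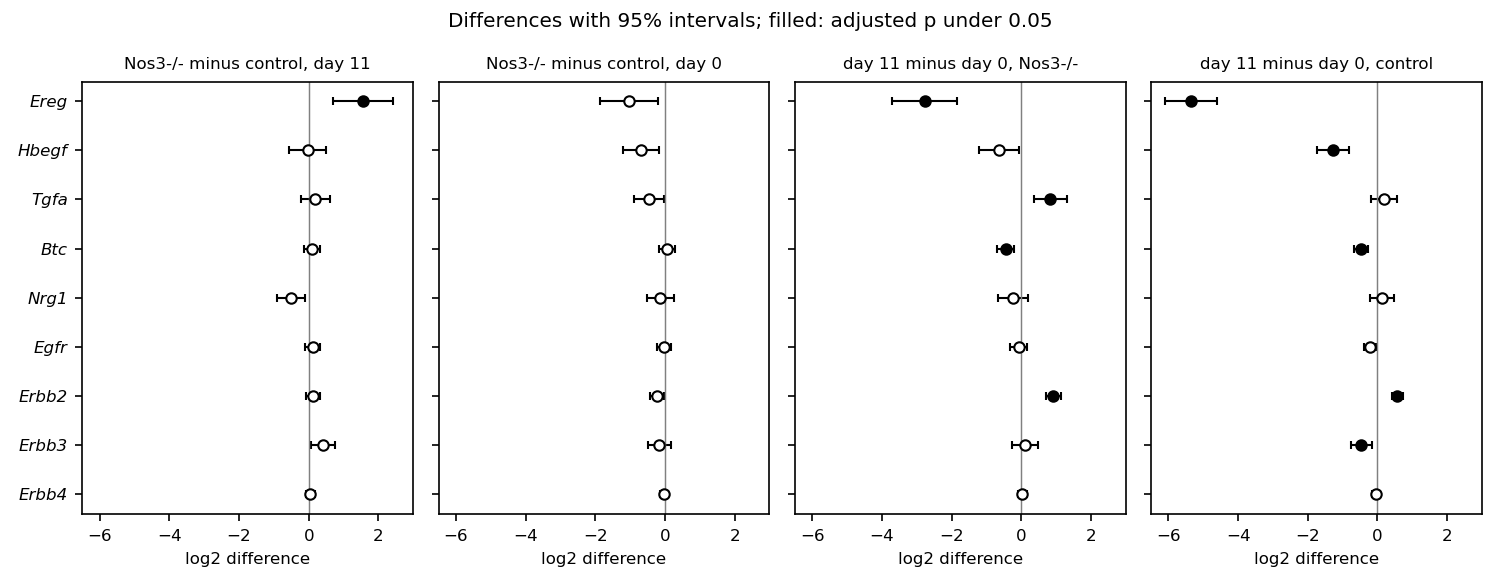
Log2 difference of each measured ligand and receptor in 4 comparisons, with the 95% interval of the limma fit. Filled points have an adjusted p under 0.05. The largest differences are those of Ereg over time, at -2.77 in Nos3-/- and -5.35 in control cells, and its day 11 difference of 1.55 is the filled point among the genotype comparisons.

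Ereg encodes epiregulin, a ligand of Egfr and Erbb4, and had the largest changes of the family. In Nos3-/- embryoid bodies its log2 level was 4.48, 4.58, 7.20, 6.65, 5.04 and 6.27 in replicates 1 to 6, and in control embryoid bodies it was 4.17, 4.32, 3.94, 3.81, 3.76, 5.40, 4.12, 3.85 and 4.03 in replicates 1 to 9. Every Nos3-/- array was above 8 of the 9 control arrays, and control replicate 6 overlapped the Nos3-/- range. The level averaged 5.70 ± 1.15 in Nos3-/- and 4.16 ± 0.50 in control embryoid bodies (SD, n = 6 and 9), a 2.92-fold higher level in Nos3-/- (log2 difference 1.55, SE 0.42, 95% interval 0.69 to 2.41, limma adjusted p = 0.0151). Within the Nos3-/- group, replicates 3, 4 and 6 were high and replicates 1, 2 and 5 low. Without Nos3-/- day 11 replicate 4 the difference was 1.36 and missed the threshold (adjusted p = 0.0562), and without the 4 arrays named above it was 1.25 (adjusted p = 0.0627).

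At day 0 the Nos3-/- mean of Ereg was the lower one, without passing the test. Ereg had a lowest, median and highest level of 7.04, 8.58 and 9.85 in Nos3-/- iPSCs, against 8.32, 9.59 and 10.74 in control iPSCs. The groups overlapped over most of their ranges. The means were 8.48 ± 0.93 in Nos3-/- and 9.51 ± 0.81 in control (SD, n = 6 and 10), and the difference of -1.03 (SE 0.41, 95% interval -1.88 to -0.19) did not pass (limma adjusted p = 0.0829). It passed without Nos3-/- day 0 replicate 1 (-1.31, adjusted p = 0.0296), without control day 0 replicate 5 (-1.17, adjusted p = 0.0483) and without control day 0 replicate 8 (-1.16, adjusted p = 0.0486).

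Ereg was lower at day 11 than at day 0 in both genotypes. It was 6.83-fold lower in Nos3-/- cells (log2 difference -2.77, SE 0.46, limma adjusted p = 5.89e-05) and 40.9-fold lower in control cells (-5.35, SE 0.37, adjusted p = 2.26e-12). In control embryoid bodies the signal was low, with a median of 4.03 on a scale that starts at 2.32. How far background sets these sizes was not tested. In control cells no day 11 array reached the level of any day 0 array, which was so for 6.52% of all genes. In Nos3-/- cells the highest embryoid body (7.20) was just above the lowest iPSC array (7.04). The change over time differed between the genotypes by 2.58 (SE 0.59, 95% interval 1.38 to 3.78, adjusted p = 0.0240), the smaller fall being in Nos3-/-. That difference missed the threshold without Nos3-/- day 0 replicate 5 (2.29, adjusted p = 0.0609) or replicate 6 (2.50, adjusted p = 0.0509). In order of level, control iPSCs were highest, then Nos3-/- iPSCs, Nos3-/- embryoid bodies and control embryoid bodies, and only the first step of that order, between the iPSC groups, did not pass the test.

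Markers of fibroblasts and feeder cells moved with Ereg over time. Of 21 such markers, 0 were higher and 16 lower at day 11 in Nos3-/- cells, and 2 were higher and 13 lower in control cells. Their mean level per array ran from 8.08 to 9.14 in Nos3-/- and from 8.77 to 10.06 in control embryoid bodies, against 9.82 to 10.79 in Nos3-/- and 10.16 to 11.54 in control iPSCs. Macrophage and mast cell markers fell too, 7 of 12 in Nos3-/- and 8 of 12 in control cells. The log2 difference of Lyz2, the lysozyme of macrophages, was -6.55 in Nos3-/- and -6.12 in control cells. In bulk RNA, fewer cells of a type and less RNA per cell cannot be told apart, and the part of these cells in the fall of Ereg was not tested. Among the 16 day 0 arrays alone, the Ereg difference between genotypes was -0.08 (limma adjusted p = 0.989) once the fibroblast level of each array entered the fit. That level itself averaged 10.26 in Nos3-/- and 10.93 in control iPSCs, so this fit separates fibroblast level and genotype only in part. With it 244 of all 18194 genes passed, against 2504 in the same arrays without it. At day 0, 6 of the 21 fibroblast markers were lower in Nos3-/- and 0 were higher.

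At day 11 the fibroblast list went the other way from Ereg. In Nos3-/- embryoid bodies 10 of its 21 genes were lower than in control and 1 was higher. Postn, a matrix protein of mesenchymal cells, was lower with a log2 difference of -3.76 (SE 0.39, limma adjusted p = 3.66e-08), and the difference for Lum, a collagen-binding proteoglycan, was -3.23 (SE 0.65, adjusted p = 0.000997). The gene that was higher was S100a4, a calcium-binding protein, at 1.73 (SE 0.46, adjusted p = 0.0130). Other lists also differed at day 11: in Nos3-/- embryoid bodies 9 of 15 visceral and yolk-sac endoderm markers were lower, 6 of 12 pluripotent cell markers were higher and 6 of 15 epithelial and surface ectoderm markers were higher. Their part in the Ereg difference was not tested.

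The genes whose profile over the 31 arrays lay closest to that of Ereg were Bgn, Fgf7 and S100a4. Likeness was the root-mean-square distance between profiles after each gene was centred on its own mean, and the distances were 0.54 for Bgn, 0.63 for Fgf7 and 0.66 for S100a4 on the log2 scale, beside a SD of 2.43 for Ereg over the same arrays. Bgn encodes biglycan, a matrix proteoglycan, and Fgf7 a fibroblast growth factor. Like Ereg, all 3 were at their group's 3 highest values in Nos3-/- day 11 replicates 3, 4 and 6. The 3 genes were picked for likeness over arrays that include these, so this follows in part from the choice. In replicate 3 the log2 level was 11.57 for S100a4, 10.00 for Bgn and 7.78 for Fgf7. The fibroblast list's mean, in which S100a4 is counted, was also highest in those 3 Nos3-/- arrays, at 8.70, 8.74 and 9.14. In control embryoid bodies, replicate 6 had the highest level of Ereg (5.40), S100a4 (9.38) and Bgn (9.14) but not of Fgf7 (4.43).

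**Figure D3:**
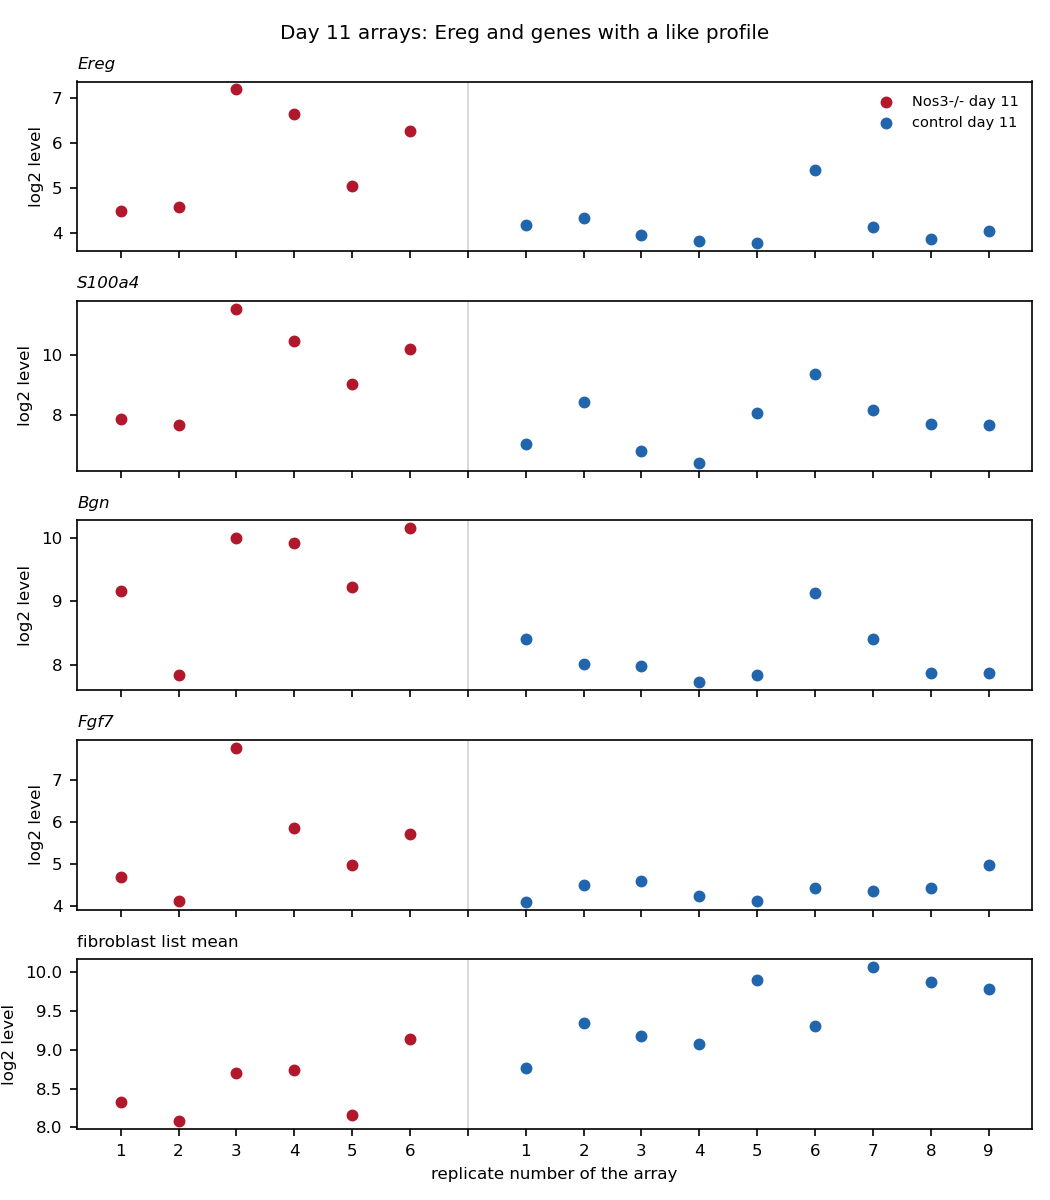
Log2 level of Ereg, S100a4, Bgn and Fgf7 and the mean log2 level of 21 fibroblast and feeder markers on the 15 day 11 arrays, Nos3-/- replicates 1 to 6 left and control replicates 1 to 9 right. Each row has its own axis and each point is 1 array. Nos3-/- replicates 3, 4 and 6 are the 3 highest of their group in every row. S100a4, Bgn and Fgf7 were picked for likeness to Ereg over all 31 arrays, these included, and S100a4 is also in the fibroblast list. The fibroblast mean of most control arrays lies above that of all Nos3-/- arrays.

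Hbegf encodes heparin-binding EGF-like growth factor, a ligand of Egfr and Erbb4. Its lowest, median and highest log2 levels were 8.42, 9.24 and 10.11 in Nos3-/- embryoid bodies, against 8.82, 9.24 and 10.07 in control. They were 9.37, 10.05 and 10.26 in Nos3-/- iPSCs, against 9.83, 10.31 and 11.70 in control iPSCs. Embryoid bodies of the genotypes overlapped over most of their ranges, and the highest arrays of the series were control iPSCs. Over time the log2 difference of Hbegf in Nos3-/- cells was -0.63 (SE 0.28, limma adjusted p = 0.0863), which passed without Nos3-/- day 11 replicate 6 (-0.80, adjusted p = 0.0349). In control cells Hbegf was 2.44-fold lower at day 11 than at day 0 (log2 difference -1.29, SE 0.22, adjusted p = 4.29e-05). These changes did not differ past the threshold (0.65, 95% interval -0.08 to 1.39, adjusted p = 0.361).

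Between genotypes, the Hbegf difference was -0.03 at day 11 (95% interval -0.56 to 0.49, limma adjusted p = 0.964). At day 0 it was -0.69 (SE 0.25, 95% interval -1.20 to -0.17, adjusted p = 0.0586), just short of the threshold. It passed when the mean of both Hbegf probe sets was taken (-0.69, adjusted p = 0.0388), with array weights (-0.78, adjusted p = 0.0236) and without the 4 arrays least correlated with their groups (-0.76, adjusted p = 0.0328). Filters on low levels, at the lower tertile (adjusted p = 0.0466) or the median (adjusted p = 0.0424), also brought it past the threshold. So did leaving out control day 0 replicate 1, 8 or 9, or Nos3-/- day 11 replicate 3 or 6, with an adjusted p between 0.0318 and 0.0494. In the day 0 arrays, once the fibroblast level of each array entered the fit, it was -0.16 (adjusted p = 0.948), where 244 of all 18194 genes passed. The second Hbegf probe set gave -0.68 at day 0 (adjusted p = 0.0310 over all probe sets fitted singly) and -0.76 over time in control cells (adjusted p = 0.00239). The profiles closest to that of Hbegf were those of Gabrb1, a GABA receptor subunit (distance 0.35), Ddah1, an enzyme that degrades a methylated arginine (0.37), and Foxs1, a forkhead transcription factor (0.38), beside a SD of 0.76 for Hbegf.

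Tgfa encodes transforming growth factor alpha, a ligand of Egfr. Its lowest, median and highest levels were 7.20, 7.99 and 8.34 in Nos3-/- embryoid bodies, against 7.45, 7.61 and 8.29 in control. They were 6.19, 7.12 and 8.00 in Nos3-/- iPSCs, against 7.08, 7.64 and 8.10 in control iPSCs. The Nos3-/- iPSCs held the lowest arrays of the series, and all groups overlapped. In Nos3-/- cells Tgfa was 1.78-fold higher at day 11 than at day 0 (log2 difference 0.84, SE 0.23, limma adjusted p = 0.00660). The call was lost when only the Nos3-/- arrays were fitted (adjusted p = 0.0606). In control cells the difference was 0.18 (adjusted p = 0.464), and the changes did not differ past the threshold (0.65, adjusted p = 0.253), though they did with array weights (0.92, adjusted p = 0.0174) and without the 4 arrays least correlated with their groups (1.00, adjusted p = 0.0193). The remaining Tgfa probe sets gave 0.09 and -0.20 over time in Nos3-/- cells, and neither passed, while the mean of the 3 probe sets gave 0.24 (adjusted p = 0.0424).

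Between genotypes Tgfa differed by 0.19 at day 11 (95% interval -0.24 to 0.62, limma adjusted p = 0.682) and by -0.46 at day 0 (95% interval -0.88 to -0.04, adjusted p = 0.124). The day 0 difference came past the threshold without replicate 3 of the Nos3-/- iPSCs (-0.65, adjusted p = 0.0158), under array weights (-0.50, adjusted p = 0.0469) and without the 4 arrays least correlated with their groups (-0.69, adjusted p = 0.00545). Replicate 3 was the highest Nos3-/- iPSC array for Tgfa, at 8.00, and the others lay between 6.19 and 7.38. The remaining Tgfa probe sets gave 0.03 and 0.10 at day 0, and the mean of the 3 probe sets gave -0.11 (adjusted p = 0.367).

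Btc and Erbb2 were the members that passed over time in both genotypes with a start site in the promoter table, and they moved in opposite directions, so the sequence around each start is shown. Both are 300 bases on the gene's strand from RefSeq, build GRCm38.p6, 250 bases before and 50 after the annotated start. Btc lies at chr5:91402945-91403244 on the minus strand and Erbb2 at chr11:98412234-98412533 on the plus strand. Capitals mark the letters of a searched motif.
Btc: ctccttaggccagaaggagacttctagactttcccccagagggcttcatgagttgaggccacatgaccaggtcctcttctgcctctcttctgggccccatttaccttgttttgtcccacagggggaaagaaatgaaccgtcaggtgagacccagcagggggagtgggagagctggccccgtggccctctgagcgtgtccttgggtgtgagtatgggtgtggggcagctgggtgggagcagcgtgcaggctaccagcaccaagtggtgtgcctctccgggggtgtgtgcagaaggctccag
Erbb2: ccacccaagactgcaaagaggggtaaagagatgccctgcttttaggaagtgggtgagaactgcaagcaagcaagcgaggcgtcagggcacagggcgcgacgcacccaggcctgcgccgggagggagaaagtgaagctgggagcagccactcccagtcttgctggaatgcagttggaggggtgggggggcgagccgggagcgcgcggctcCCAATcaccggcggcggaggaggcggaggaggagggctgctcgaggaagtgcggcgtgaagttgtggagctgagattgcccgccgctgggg
The motifs searched, on both strands, were the GC box GGGCGG, the CCAAT box CCAAT, the TATA box TATAAA and the AP-1 site TGANTCA, and no matches overlapped. The Erbb2 window holds 1 CCAAT match and 0 of the others, and the Btc window holds 0 matches of any of them. Among 32851 mouse windows of this length, 37.4% hold CCAAT, 35.7% GGGCGG, 13.6% TATAAA and 7.8% TGANTCA. GC content is 60.3% with 5 CpG dinucleotides for Btc and 66.0% with 21 for Erbb2, beside medians of 52.7% and 7 over all windows. A match is a description of these letters only.

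Btc encodes betacellulin, a ligand of Egfr and Erbb4. Its lowest, median and highest levels were 4.88, 5.03 and 5.59 in Nos3-/- embryoid bodies, against 4.68, 4.96 and 5.24 in control. They were 5.05, 5.64 and 5.74 in Nos3-/- iPSCs, against 5.21, 5.53 and 5.65 in control iPSCs. Embryoid bodies lay below iPSCs by median. The days overlapped at the edges in control cells and over most of their ranges in Nos3-/- cells. Btc was lower at day 11 than at day 0 by a log2 difference of -0.44 in Nos3-/- (SE 0.12, limma adjusted p = 0.00582) and -0.47 in control cells (SE 0.09, adjusted p = 0.000244). The change did not differ past the threshold between genotypes (0.03, 95% interval -0.28 to 0.34, adjusted p = 0.945). Neither did the level, with differences of 0.09 at day 11 (adjusted p = 0.726) and 0.06 at day 0. The second Btc probe set was also lower over time, at adjusted p = 0.000327 in Nos3-/- and 0.00721 in control cells. Its levels ran only from 2.79 to 3.59, near the bottom of the array's scale, which starts at 2.32.

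Btc stands beside Areg, Ereg and Epgn on chromosome 5, where RefSeq lists Epgn, Ereg, Areg and Btc as consecutive protein-coding genes between Mthfd2l and Parm1. Nos3 lies on the same chromosome. Epgn, which encodes epigen, another Egfr ligand, is not a member of the named set. It averaged 4.57 ± 0.22 in Nos3-/- and 4.48 ± 0.18 in control embryoid bodies, against 4.84 ± 0.12 in Nos3-/- and 4.70 ± 0.12 in control iPSCs. Over time its log2 difference was -0.27 in Nos3-/- (SE 0.09, limma adjusted p = 0.0298) and -0.23 in control cells (SE 0.08, adjusted p = 0.0193). The 3 measured genes of this stretch thus passed as lower at day 11 in both genotypes, by very unequal amounts. Of all genes, 18.1% passed as lower in Nos3-/- and 18.2% in control cells. Btc lay in the lower tertile of all genes by mean level, and the Epgn signal was below that of Btc in every group. Whether their place on the chromosome has a part in these changes was not tested.

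Nrg1 encodes neuregulin 1, the ligand of Erbb3 and Erbb4. Its lowest, median and highest levels were 5.05, 5.38 and 5.57 in Nos3-/- embryoid bodies, against 5.32, 5.73 and 6.58 in control. They were 5.19, 5.57 and 6.06 in Nos3-/- iPSCs, against 5.03, 5.75 and 6.54 in control iPSCs. Control embryoid bodies reached higher than Nos3-/- ones, with 3 control arrays at 6.30 or above. The day 11 difference of -0.50 (SE 0.20, 95% interval -0.90 to -0.10) did not pass (limma adjusted p = 0.109), and the day 0 difference was -0.14 (adjusted p = 0.682). Over time the differences were -0.24 in Nos3-/- (adjusted p = 0.422) and 0.13 in control cells (adjusted p = 0.600). This probe set is the only one of Nrg1 here, and the array does not separate the many neuregulin 1 isoforms.

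The ligands outside the named set did not differ between genotypes past the threshold, 0 of 5 on either day by limma. Of all genes, 9.70% passed at day 11 and 16.6% at day 0. On each day 1 of the 5 had an unadjusted p under 0.05 (Egf at day 11 and Nrg2 at day 0). The share of all genes at that mark was not counted. Over time, the log2 difference of Egf, the founding ligand of the family, was 0.08 in Nos3-/- cells (adjusted p = 0.621), and Egf was higher at day 11 in control cells (0.42, SE 0.09, adjusted p = 0.000722). At day 11 the level of Egf averaged 5.26 ± 0.10 in Nos3-/- and 5.55 ± 0.22 in control embryoid bodies (difference -0.29, adjusted p = 0.0816). Nrg2, another neuregulin, was lower at day 11 in Nos3-/- (-0.34, adjusted p = 0.00944) and control cells (-0.20, adjusted p = 0.0426). Nrg3 ran from 3.50 to 4.01 and Nrg4 from 4.85 to 5.94 over all arrays, and neither passed in any comparison.

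Erbb2, the receptor that serves as partner of the others, was the member that rose over time in both genotypes. It had a lowest, median and highest level of 7.92, 7.97 and 8.24 in Nos3-/- embryoid bodies, against 6.82, 7.15 and 7.34 in Nos3-/- iPSCs. In control cells these were 7.69, 7.94 and 8.10 in embryoid bodies, against 7.02, 7.36 and 7.80 in iPSCs. The days did not overlap in Nos3-/- cells, which was so for 7.83% of all genes, and in control cells 1 iPSC array, replicate 10 at 7.80, reached into the day 11 range. Erbb2 rose 1.89-fold in Nos3-/- (log2 difference 0.92, SE 0.10, limma adjusted p = 2.71e-07) and 1.49-fold in control cells (0.57, SE 0.08, adjusted p = 2.84e-06). The changes did not differ past the threshold (0.35, 95% interval 0.08 to 0.62, adjusted p = 0.174).

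Between genotypes Erbb2 differed by 0.12 at day 11 (95% interval -0.08 to 0.31, limma adjusted p = 0.535) and by -0.23 at day 0 (SE 0.09, adjusted p = 0.0864). The day 0 difference passed without Nos3-/- day 0 replicate 3 (-0.28, adjusted p = 0.0380), without control day 0 replicate 3 (-0.26, adjusted p = 0.0486) and without the 4 arrays least correlated with their groups (-0.30, adjusted p = 0.0144).

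Erbb3, the receptor with little kinase activity, had a lowest, median and highest level of 9.25, 9.52 and 9.86 in Nos3-/- embryoid bodies, against 8.75, 9.19 and 9.73 in control. They were 9.06, 9.61 and 9.64 in Nos3-/- iPSCs, against 9.16, 9.55 and 10.36 in control iPSCs. Control embryoid bodies held the lowest arrays. Over time the log2 difference in Nos3-/- cells was 0.10 (SE 0.18, limma adjusted p = 0.702). In control cells Erbb3 was lower at day 11 than at day 0 (-0.46, SE 0.14, adjusted p = 0.0133), and the changes did not differ past the threshold (0.57, adjusted p = 0.210). The genotype difference was 0.41 at day 11 (95% interval 0.07 to 0.75, adjusted p = 0.129), which passed with array weights (0.46, adjusted p = 0.0130), and -0.16 at day 0 (adjusted p = 0.548). The second Erbb3 probe set passed in no comparison, and the mean of both gave -0.30 over time in control cells (adjusted p = 0.00186).

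Of 15 epithelial and surface ectoderm markers, 2 were higher and 1 lower at day 11 than at day 0 in Nos3-/- cells, and 2 were higher and 7 lower in control cells. Their mean level per array ran from 9.10 to 9.58 in Nos3-/- and from 9.00 to 9.26 in control embryoid bodies, against 8.54 to 9.44 in Nos3-/- and 9.12 to 10.05 in control iPSCs. Their part in the Erbb3 values was not tested.

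Erbb4, a receptor of Nrg1, passed in 0 of the 5 comparisons by limma, and 0 had an unadjusted p under 0.05. Its levels lay between 2.79 and 3.23 on all 31 arrays, near the bottom of the array's scale, which starts at 2.32. Its 4 group means lay within 0.04 of each other on the log2 scale. The deposited table holds no detection calls, so whether this probe set measured any Erbb4 RNA was not tested.

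Egfr, the receptor of most of these ligands, gave different answers by probe set. The probe set used, 1460420_a_at, had a lowest, median and highest level of 7.51, 7.73 and 7.94 in Nos3-/- embryoid bodies, against 7.27, 7.58 and 8.07 in control. They were 7.39, 7.77 and 8.22 in Nos3-/- iPSCs, against 7.66, 7.83 and 8.08 in control iPSCs. All groups overlapped and no comparison passed. The largest difference was -0.22 over time in control cells (95% interval -0.40 to -0.03, limma adjusted p = 0.0624), and the genotype differences were 0.11 at day 11 (95% interval -0.10 to 0.32) and -0.03 at day 0 (95% interval -0.23 to 0.18). The change over time in control cells did pass with array weights (-0.29, adjusted p = 0.00344), with the mean of the 7 Egfr probe sets (-0.25, adjusted p = 0.0112), after quantile normalization (-0.24, adjusted p = 0.0468), after centring (-0.25, adjusted p = 0.0331) and without the 4 arrays least correlated with their groups (-0.27, adjusted p = 0.0148). It also passed with only the control arrays fitted (adjusted p = 0.0391), without control day 11 replicate 1 (-0.28, adjusted p = 0.0118) and without Nos3-/- day 0 replicate 4 (adjusted p = 0.0446) or 5 (adjusted p = 0.0401).

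With every probe set fitted singly and adjusted over all 34958, 4 further Egfr probe sets passed somewhere. Probe set 1424932_at was higher in Nos3-/- at day 11 (7.18 ± 0.50, against 6.47 ± 0.37 in control, SD; adjusted p = 0.0379) and lower at day 11 than at day 0 in control cells (adjusted p = 0.00791). Probe set 1435888_at was lower in Nos3-/- at day 0 (6.96 ± 0.46, against 7.75 ± 0.57 in control, SD; adjusted p = 0.0394) and higher at day 11 than at day 0 in Nos3-/- cells (adjusted p = 0.0370). Probe set 1457563_at, at low levels, was higher in Nos3-/- at day 0 (3.62 ± 0.15, against 3.42 ± 0.10 in control, SD; adjusted p = 0.0466) and lower over time in Nos3-/- cells (adjusted p = 0.0158). Probe set 1454313_at was lower over time in Nos3-/- cells (adjusted p = 0.0349). Over time in control cells all 7 probe sets had a lower mean at day 11 than at day 0, with log2 differences of -0.66 to -0.07. In the other comparisons of 2 groups the probe sets differed in sign. Why the probe sets differ was not tested.

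**Figure D4:**
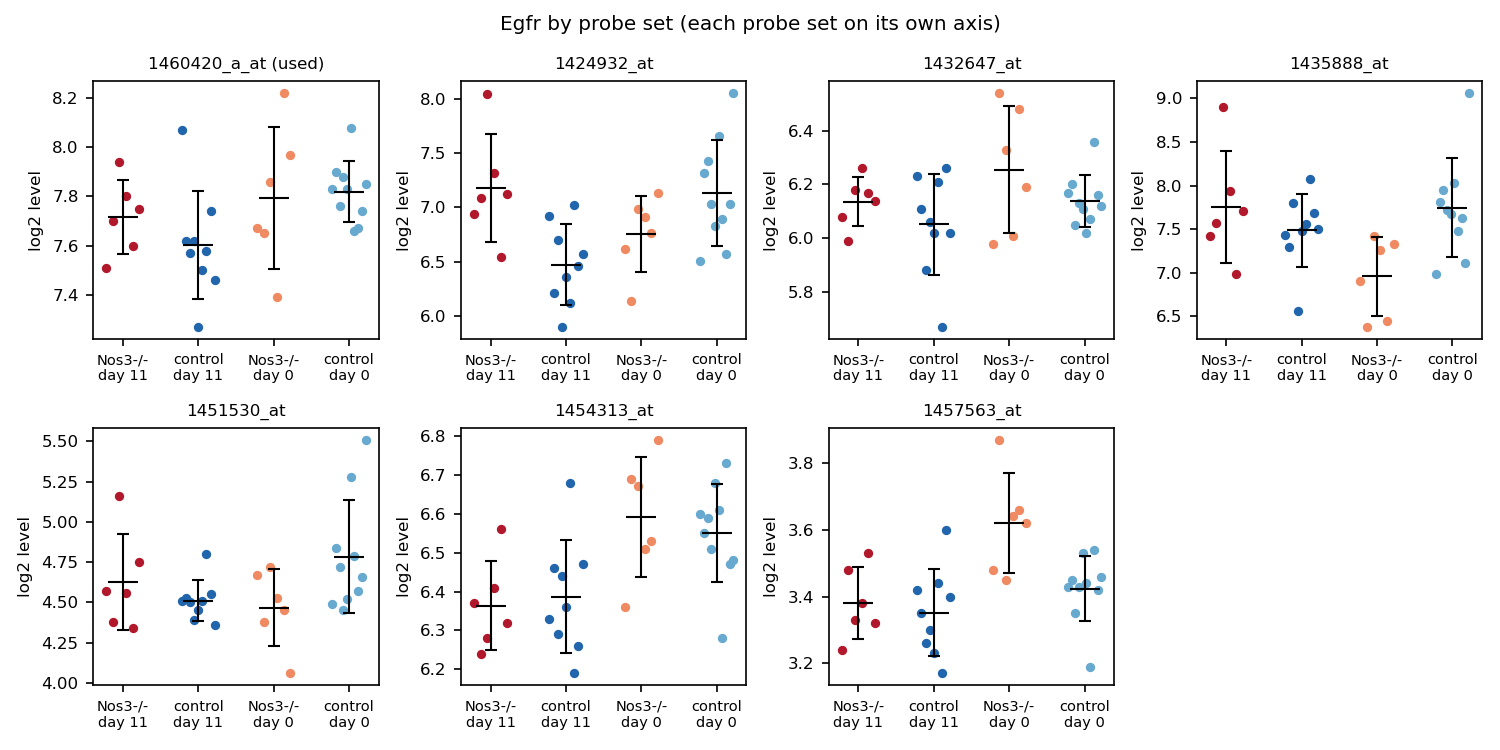
Log2 level of the 7 Egfr probe sets on each array by group (Nos3-/- day 11, control day 11, Nos3-/- day 0, control day 0), each probe set on its own axis. Points are arrays, and bars are the mean and SD of the group. Between genotypes at day 0, 1435888_at is lower in Nos3-/- (6.96 against 7.75) and 1457563_at higher (3.62 against 3.42), while the probe set used differs by -0.03.

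Genes of the wider pathway were counted in 4 lists, over time and between genotypes, and the shares of all genes that passed are those given above. Of 14 genes that shed or carry the ligands, 0 were higher and 4 lower in Nos3-/- at day 11, and 0 were higher and 5 lower at day 0. The median log2 difference of the list was -0.14 at day 11 and -0.39 at day 0, beside medians of 0.00 and 0.01 over all genes. Over time, 3 rose and 4 fell in each genotype. The fibroblast markers described with Ereg moved the same way, with 10 of 21 lower and 1 higher in Nos3-/- at day 11 and 6 of 21 lower at day 0, and their part at day 11 was not tested. When only the day 0 arrays were fitted by limma, 3 of the 14 genes were lower, and with the fibroblast level of each array in that fit 1 was (median -0.06). Of all 18194 genes, 2504 passed in either direction with the day 0 arrays alone, and 244 with the fibroblast level added.

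Adam10, a protease that cuts betacellulin and other ligands free in mouse cells, had the largest fall in that list on both days. At day 11 its lowest, median and highest levels were 10.25, 10.62 and 11.24 in Nos3-/-, against 11.34, 11.56 and 11.88 in control embryoid bodies. At day 0 they were 9.87, 10.26 and 10.78 in Nos3-/-, against 10.97, 11.20 and 11.52 in control iPSCs. The genotypes did not overlap on either day, which was so for 2.60% of all genes at day 11 and 1.92% at day 0. Adam10 was 1.81-fold lower in Nos3-/- at day 11 (log2 difference -0.86, SE 0.13, limma adjusted p = 2.36e-05) and 1.96-fold lower at day 0 (-0.97, SE 0.13, adjusted p = 3.31e-06). Its other probe sets gave -0.71, -0.21 and 0.08 at day 11 and -1.05, -0.51 and -0.08 at day 0, so they differed in size and, at day 11, in direction. With the fibroblast level in the fit of the day 0 arrays, Adam10 differed by -0.78 (SE 0.15, adjusted p = 0.0123).

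Others of the shedding list changed in 1 comparison or over time. Adam19, a further ADAM protease, was lower in Nos3-/- at day 11 (log2 difference -0.72, SE 0.19, limma adjusted p = 0.0104). Furin, which cuts the precursors of proteases, was lower in Nos3-/- at day 0 (-0.55, SE 0.14, adjusted p = 0.00765). Adam8 fell over time, with log2 differences of -1.96 in Nos3-/- and -2.14 in control cells. Timp3, an inhibitor of ADAM proteases, fell over time as well (-1.49 in Nos3-/- and -1.76 in control cells). Adam10 itself rose over time, by 0.43 in Nos3-/- (adjusted p = 0.0210) and 0.32 in control cells (adjusted p = 0.0271).

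Of 25 inhibitors and turnover factors of the receptors, 1 was higher and 2 were lower in Nos3-/- at day 11, and 0 were higher and 6 lower at day 0. Over time 6 rose and 3 fell in Nos3-/- cells, and 4 rose and 7 fell in control cells. Errfi1 (also called Mig6), which binds the Egfr kinase and blocks it, was the one that was higher at day 11. It averaged 10.63 ± 0.31 in Nos3-/- and 9.96 ± 0.27 in control embryoid bodies (SD, n = 6 and 9), a log2 difference of 0.67 (SE 0.18, limma adjusted p = 0.0127), and its second probe set gave 0.75. Over time Errfi1 fell, with log2 differences of -0.84 in Nos3-/- (adjusted p = 0.00170) and -1.73 in control cells (adjusted p = 5.96e-10), and that difference in change did not pass (0.89, adjusted p = 0.0683). At day 0, Lrig3, a membrane protein of a family that lowers ErbB receptor levels, was lower in Nos3-/- (-1.30, SE 0.30, adjusted p = 0.00423), as was Spry4, an inhibitor of RAS-MAP kinase signalling (-0.80, SE 0.16, adjusted p = 0.00102). In the limma fit of the day 0 arrays alone 8 of the 25 were lower, where 2504 of all 18194 genes passed. With the fibroblast level added 0 were, where 244 of all genes passed at the adjusted threshold. Unadjusted, 2 of the 25 had a p under 0.05, a count that was not made over all genes. The fibroblast markers' part at day 11 was not tested.

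Of 28 measured adaptors and kinases downstream of the receptors, 0 were higher and 4 lower in Nos3-/- at day 11, and 0 were higher and 6 lower at day 0. Over time 9 rose and 2 fell in Nos3-/- cells, and 9 rose and 3 fell in control cells. At day 11 the lower ones included Sos2, an exchange factor for RAS (log2 difference -0.61, SE 0.18, limma adjusted p = 0.0258), and Braf, a kinase of the MAP kinase route (-0.43, SE 0.11, adjusted p = 0.00867). Braf rose over time, by 0.80 in Nos3-/- and 0.86 in control cells. At day 0, Ptpn11, a phosphatase needed for RAS activation (-0.57, adjusted p = 0.00637), and Akt1, a kinase of the PI3 kinase route (-0.45, adjusted p = 0.0298), were lower in Nos3-/-. The part of the fibroblast markers at day 11 was not tested. In the limma fit of the day 0 arrays alone 5 of the 28 were lower. With the fibroblast level added 0 were lower. Unadjusted, 1 had a p under 0.05, a count that was not made over all genes. Of all 18194 genes, 2504 passed with the day 0 arrays alone and 244 with the fibroblast level added.

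Of 27 genes known to respond to Egfr signalling, 1 was higher and 1 lower in Nos3-/- at day 11, and 0 were higher and 8 lower at day 0. The median log2 difference of the list was -0.02 at day 11 and -0.41 at day 0. Over time 1 rose and 9 fell in Nos3-/- cells, and 0 rose and 13 fell in control cells. At day 11 Dusp1, a phosphatase of MAP kinases, was higher in Nos3-/- (0.64, SE 0.19, limma adjusted p = 0.0329) and Jun, a subunit of AP-1, was lower (-0.54, SE 0.16, adjusted p = 0.0229). At day 0 Dusp4, another MAP kinase phosphatase (-1.24, adjusted p = 0.00441), and Egr2, an early growth response factor (-0.95, adjusted p = 0.0351), were lower in Nos3-/-. Ptgs2, the inducible cyclooxygenase, fell over time (-2.65 in Nos3-/- and -3.08 in control cells), and so did Egr2 (-1.71 in Nos3-/- and -2.48 in control cells). Dusp4 rose over time in Nos3-/- cells by 1.31 (adjusted p = 0.00312). These genes answer to many signals besides Egfr. Fibroblast markers moved with them over time and at day 0, and macrophage markers over time. At day 0 limma called 0 of 12 macrophage and mast cell markers between genotypes, and 0 had an unadjusted p under 0.05. In the limma fit of the day 0 arrays alone 5 of the 27 response genes were lower, where 2504 of all 18194 genes passed. With the fibroblast level added 0 were, where 244 of all genes passed at the adjusted threshold. Unadjusted, 2 of the 27 had a p under 0.05, a count that was not made over all genes. The part of fibroblasts and macrophages in the counts over time was not tested.

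**Figure D5:**
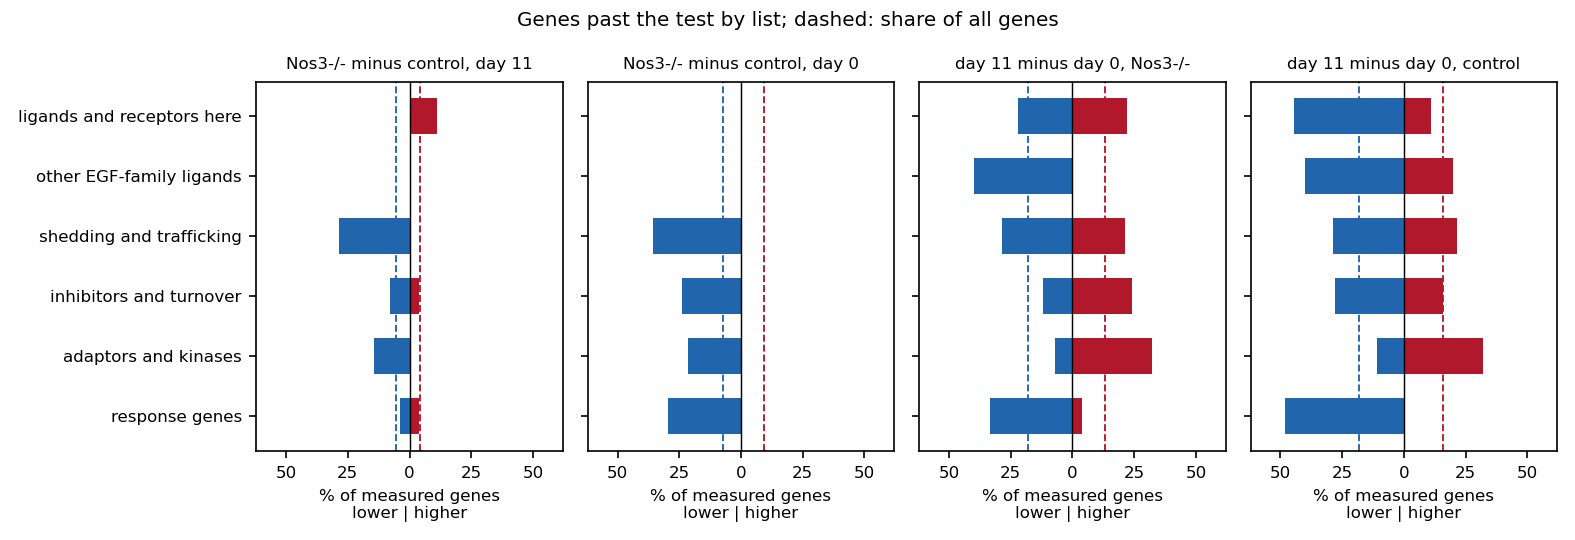
Share of the measured genes of 6 lists that passed the limma test, to the right of 0 where higher and to the left where lower, in 4 comparisons. Dashed lines give the share of all 18194 genes that passed in that direction, such as 4.41% higher and 5.29% lower for Nos3-/- minus control at day 11 and 9.17% higher and 7.47% lower at day 0. At day 0 no gene of any of these lists was higher in Nos3-/-.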

How the data were processed

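The data are 31 Affymetrix arrays of biotinylated cRNA. The authors summarized them with RMA, per the submitters' processing notes, and the deposited values are log2 intensities. They run from 2.32 to 15.01 with array medians of 6.13 to 6.23, no 2 arrays held the same values (highest r 0.997). The number of arrays limits the precision. No batch, scan date or detection call is given.

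Of 45101 probe sets, 34958 carry 1 symbol in the platform table, 932 several and 9211 none, and 34754 were matched to RefSeq genes. Each gene took its probe set with the highest mean, and no filter on low values was used. The log2 values were fitted as deposited by limma 3.58.1 (R 4.3.3), with 1 mean for each group and empirical Bayes variances (27 residual and 2.80 prior degrees of freedom), and adjusted by Benjamini-Hochberg over 18194 genes. The fit was also run on simulated data with independent normal noise, which cannot show how it behaves with correlated or outlying arrays.

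The members and gene lists were chosen with earlier results of these data known. Named genes are the members, Nos3, the 3 closest profiles of members whose group means span 1 or more, and up to 2 passing genes at either end of each list. Alternatives were quantile normalization, centring, the mean of probe sets, leaving out shared probe sets, filters on low levels, a replicate block, robust eBayes with a trend, array weights, the compared groups alone, a fibroblast covariate at day 0 and each array left out. Fitting every probe set singly, leaving out the 4 arrays least correlated with their groups and the fibroblast covariate for the pathway lists were added after seeing the data. Promoter windows are RefSeq's.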

Additional observations from a re-analysis of the deposited data

Results flagged for a closer look

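Among 36 sets of values (9 genes in 4 groups), 2 arrays lay far from the rest of their group, and chance alone gives about 1 such flag in 20 sets. Ereg was 5.40 on control day 11 replicate 6, while the other control embryoid bodies lay between 3.76 and 4.32. Btc was 5.59 on Nos3-/- day 11 replicate 3, while the others of its group lay between 4.88 and 5.12, and this is the array that correlates least with its group.

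The change of Ereg from day 0 to day 11 differed between the genotypes by 2.58 on the log2 scale in the limma fit, with the smaller fall in Nos3-/-.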

How the results depend on the processing

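Of 11 gene results that passed, leaving out 1 array ended 2 and the other alternatives ended 3, while 6 and 7 that had not passed came to pass, and 0 passing results changed direction. Differences that passed in neither setting are counted as kept, also where their sign changed. Members passing at day 0 between genotypes (0) were 1 with the mean of probe sets, without genes below the lower tertile and without genes below the median, 2 with array weights, 3 without the 4 arrays least correlated with their groups and 0 to 2 with 1 array left out. All genes passing there (3029) were 244 with the fibroblast covariate, 5208 without 4 arrays and 1471 to 4142 with 1 array left out, lowest without Nos3-/- day 0 replicate 5 and then replicate 2 (2012). At day 11, members (1) were 0 without genes below the median, 2 with weights, 0 without 4 arrays and 0 to 1 with 1 array left out, and all genes (1764) were 1121 without genes below the median and 3939 with weights. Over time, without genes below the median, members were 2 in Nos3-/- and 3 in control cells, and all genes were 3756 in Nos3-/- and 3835 in control cells, with 3679 in Nos3-/- when only its own arrays were fitted. For the difference in change, members (1) were 0 without genes below the median, 2 with weights, 2 without 4 arrays and 0 to 1 with 1 array left out, and all genes (225) were 1590 with weights, 1489 without 4 arrays and 88 to 745 with 1 array left out, lowest without Nos3-/- day 0 replicate 5 and highest without Nos3-/- day 0 replicate 3 (745) or Nos3-/- day 11 replicate 3 (620). The median filter leaves 5 of the 9 members and removes Ereg, Btc, Erbb4 and Nrg1. Its counts of all genes come from fewer genes than 18194, so a lower count there need not be a lower share. Centring turned the share of higher calls over time in Nos3-/- to 30.9%, against 41.7%. The replicate numbers did not pair the arrays: correlations of same-numbered arrays ran from -0.27 to 0.35 between genotypes at day 0 and from -0.21 to 0.14 at day 11, and between days from -0.02 to 0.29 in Nos3-/- and from -0.24 to 0.27 in control cells. With the replicate block, 1 member passed at day 0 (Hbegf, -0.76, adjusted p = 0.0214), Hbegf passed over time in Nos3-/- (-0.63, adjusted p = 0.0319) and Erbb3 over time in control cells did not (-0.38, adjusted p = 0.0614). Apart from the genes the filters remove, the causes were not tested. Low signals, such as Erbb4, Btc and Ereg in control embryoid bodies, have no detection call to set them against.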
